A study of Mus musculus with 4 samples.

Results

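The genes described here are 37 genes of transforming growth factor-beta (TGF-beta) signalling and of the contractile and matrix programme that serum response factor (SRF) and the co-activator YAP drive, out of 34813 genes on the array. They were listed by name, with earlier results of these data known, and fall into 14 pathway components (ligands, latent binding proteins, receptors, signal transducers, inhibitors and transcription factors), 8 secreted targets and 15 genes of the actin cytoskeleton. All 37 were well above background on all 4 arrays, so no member was lost to a filter on dim probes.

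The arrays were made from mouse embryonic fibroblasts (MEFs) of male E13.5 embryos that carry an Oct4-EGFP transgene, several embryos being mixed according to the study's methods, and the cells were in the course of reprogramming to pluripotent stem cells. All groups carried retroviral Oct4, Sox2 and Klf4 and were sampled 8 days after transduction. OSK cells received these factors alone, and OSKA cells also received AKT-MER, a membrane-targeted form of the kinase AKT fused to a modified estrogen receptor, so that 4-hydroxytamoxifen (4OHT) switches the kinase on. From day 3 the cells were given 4OHT or ethanol as vehicle, which gives 4 groups of 1 array each: OSK -4OHT, OSK +4OHT, OSKA -4OHT and OSKA +4OHT. The description of the OSKA +4OHT array says that AKT-MER was not active, against its title and the study's design, and the array was grouped by its title. The cells were not sorted, and in such bulk RNA fewer cells of a type and less RNA per cell cannot be told apart. With 1 array per group there was no replicate check and no test was possible, and every difference below compares arrays rather than conditions.

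TGF-beta is secreted in a latent complex and, once released, binds a pair of serine/threonine kinase receptors that phosphorylate SMAD proteins, which enter the nucleus and switch on matrix and cytoskeletal genes as well as their own inhibitors. SRF is held in check by actin monomers through its co-activator MRTF, while YAP is held in the cytoplasm by the Hippo kinases and acts through TEAD proteins in stretched, spread cells. In fibroblasts the 3 routes meet on genes for stress fibres, focal adhesions and matrix, the programme of an activated fibroblast or myofibroblast, and loss of the fibroblast programme is an early step of reprogramming.

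Promoter sequences are shown first for members that hold a letter match to a binding motif of SRF or of TEAD, since these are the routes by which the list is grouped. RefSeq promoter windows (build GRCm38.p6, from 250 bases before to 50 bases after the annotated start site) were at hand for 27 of the 37 members, in 32 windows. Tgfb3, Smad7, Skil, Pmepa1, Ccn2, Thbs1, Fn1, Lox, Actg2 and Tagln had no window. Both strands were searched for the CArG box of SRF, for the TEAD motif GGAATG and for the SMAD-linked motif CAGACA, and no matches in members overlapped. The CArG box was taken only in the exact form CCWWWWWWGG, where W is A or T, so looser forms were not counted. The 250 bases upstream of the start site are printed 5′ to 3′ on the strand of the gene, in lower case, with CArG boxes and TEAD motifs in capitals. The first 5 hold a CArG box, and Vcl, which encodes the focal adhesion protein vinculin, holds a TEAD motif as well. Their positions are chr17:46556163-46556412 on the minus strand for Srf, chr1:43196762-43197011 on the minus strand for Fhl2, chr14:20929148-20929397 on the plus strand for Vcl, chr10:79988350-79988599 on the plus strand for Cnn2 and chr2:156775214-156775463 on the plus strand for Myl9.
Srf: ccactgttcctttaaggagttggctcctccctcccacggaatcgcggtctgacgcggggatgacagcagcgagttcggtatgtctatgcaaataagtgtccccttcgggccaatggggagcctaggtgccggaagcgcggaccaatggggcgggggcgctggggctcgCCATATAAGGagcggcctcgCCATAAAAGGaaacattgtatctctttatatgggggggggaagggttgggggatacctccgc
Fhl2: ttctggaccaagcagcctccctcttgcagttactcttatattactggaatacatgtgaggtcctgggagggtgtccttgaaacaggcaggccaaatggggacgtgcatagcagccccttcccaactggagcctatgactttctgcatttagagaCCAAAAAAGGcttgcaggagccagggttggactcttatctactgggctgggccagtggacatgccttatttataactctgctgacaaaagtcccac
Vcl: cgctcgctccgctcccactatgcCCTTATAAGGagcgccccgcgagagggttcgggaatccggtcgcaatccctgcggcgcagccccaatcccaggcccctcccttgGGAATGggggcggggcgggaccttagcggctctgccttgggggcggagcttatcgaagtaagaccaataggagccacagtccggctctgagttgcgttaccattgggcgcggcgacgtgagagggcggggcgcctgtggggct
Cnn2: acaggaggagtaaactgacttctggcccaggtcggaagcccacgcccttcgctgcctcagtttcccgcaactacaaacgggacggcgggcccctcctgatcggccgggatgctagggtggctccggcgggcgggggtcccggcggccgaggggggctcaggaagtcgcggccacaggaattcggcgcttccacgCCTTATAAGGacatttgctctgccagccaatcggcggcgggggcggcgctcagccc
Myl9: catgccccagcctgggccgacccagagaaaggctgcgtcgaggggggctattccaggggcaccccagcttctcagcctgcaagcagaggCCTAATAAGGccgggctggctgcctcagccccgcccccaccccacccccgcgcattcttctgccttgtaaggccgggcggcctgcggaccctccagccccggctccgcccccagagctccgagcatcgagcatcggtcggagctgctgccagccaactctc

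The next 3 hold a TEAD motif but no CArG box and come from genes with large differences between arrays or from a standard YAP target. They lie at chr19:36119845-36120094 on the minus strand for Ankrd1, at chr3:145649986-145650235 on the minus strand for Ccn1 and at chr13:42301226-42301475 on the plus strand for Edn1.
Ankrd1: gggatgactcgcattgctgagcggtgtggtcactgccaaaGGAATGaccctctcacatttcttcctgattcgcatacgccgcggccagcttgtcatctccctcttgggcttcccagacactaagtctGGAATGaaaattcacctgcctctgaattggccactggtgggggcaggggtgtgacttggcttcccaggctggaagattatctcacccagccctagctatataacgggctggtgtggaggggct
Ccn1: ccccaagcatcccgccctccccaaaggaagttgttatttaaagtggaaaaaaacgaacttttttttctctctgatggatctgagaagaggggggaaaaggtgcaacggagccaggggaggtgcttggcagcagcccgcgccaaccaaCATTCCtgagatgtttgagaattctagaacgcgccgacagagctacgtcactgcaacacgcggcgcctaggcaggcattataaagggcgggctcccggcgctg
Edn1: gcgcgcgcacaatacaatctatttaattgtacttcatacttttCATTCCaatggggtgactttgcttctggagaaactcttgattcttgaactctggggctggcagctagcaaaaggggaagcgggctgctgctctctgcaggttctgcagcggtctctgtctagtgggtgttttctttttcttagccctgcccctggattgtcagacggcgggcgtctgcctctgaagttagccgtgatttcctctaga

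A CArG box stood in a window of 5 of the 27 members (18.5%), against 1.81% of the 27025 genes with a window. The gene for SRF itself held 2, starting 82 and 62 bases before its start site, and Fhl2 held 1 in each of its windows. The TEAD motif stood in 8 of 27 members (29.6%), against 16.6% of genes, and Ankrd1 held 2 of them, at 210 and 123 bases before the start site. CAGACA stood in 6 of 27 members (22.2%), a share near the 23.6% of all genes. The members were chosen as known targets, and a match describes letters only, neither a site nor a cause.

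**Figure D1:**
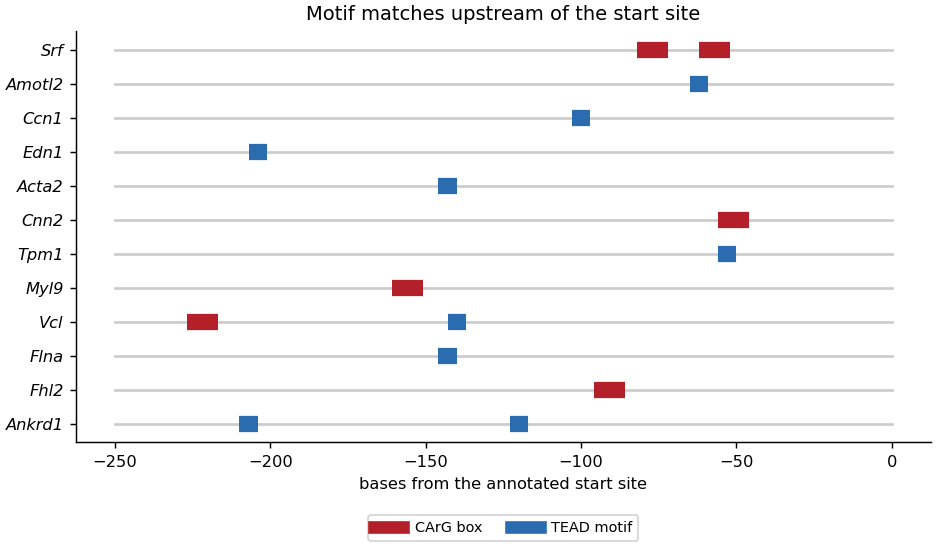
Distance from the annotated start site, in bases, of each CArG box (red) and TEAD motif (blue) in the 250 upstream bases of the first promoter window of the 12 members that hold one. CArG boxes lie between 227 and 56 bases before the start site, and Vcl alone holds both motifs.

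Most genes of the list were lower with 4OHT than without in cells that carry AKT-MER. In OSKA cells 32 of the 37 genes were lower with 4OHT than without, with a median log2 difference of -0.58, whereas the median of all 20299 genes measured there was -0.03. Levels are log2 intensities relative to each array's 75th percentile, and a difference of 1 on this scale is a 2-fold difference. Tagln, Ccn2, Edn1 and Acta2 were at least 2-fold lower, 4 of 37 genes against 0.902% of all genes, and 0 were 2-fold higher, against 2.01%. Among the 6513 brightest genes, to which 29 of the 37 belong, the share at least 2-fold lower was 0.276%. At 1.5-fold 18 members were lower, against 4.63% of all genes and 1.70% of the brightest, and 0 were higher, against 5.06%.

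The scanner software gives its own error for each spot, which came to 0.20 on the log2 scale for the typical difference of a member, about 1.15-fold. It was the same 0.20 for Tagln with 1 spot and for Acta2 with 10, and larger for the dim Ankrd1 (0.26 in OSKA cells). For most members this error thus works as a nearly fixed cutoff, and it does not hold the spread between cultures. By that error 27 members were lower in OSKA cells with 4OHT, 5 were higher and 5 were within it, where of all genes 24.2% were lower and 18.4% higher past their own error and 57.5% were within it. Of the 14 members with several measured probes, 12 had all of them lower and 1 all of them higher, and Tgfbr1 was mixed. The 15 genes of the actin cytoskeleton had a median of -0.65, with 14 lower and 11 of the 15 at least 1.5-fold lower. The 8 secreted targets had a median of -0.53, with 6 lower, and the 14 pathway components one of -0.33, with 12 lower.

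The same treatment of OSK cells, which lack AKT-MER, left the list centred near 0. The median difference was 0.01, with 20 genes higher and 17 lower, and only Ankrd1 was at least 2-fold higher, against 0.609% of all genes. No member was 2-fold lower, against 0.277%, and 2, Ankrd1 and Fhl2, were at least 1.5-fold higher, against 4.33%. By the software error 25 of the 37 members (67.6%) were within it, near the 66.0% of all genes, while 9 (24.3%) were higher and 3 (8.11%) lower past it, against 18.0% and 16.0% of all genes. Spike-in scaling, in which added control RNA replaces the 75th percentile, moved the median of all genes in OSK cells by -0.30 and in the comparison of OSKA with OSK without 4OHT by -0.46, but by 0.07 in OSKA cells and -0.09 between OSKA and OSK with 4OHT. Each array is moved as a whole by this, so the median of the members minus that of all genes is by construction the same under both, at -0.55 in OSKA and 0.02 in OSK cells.

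**Figure D2:**
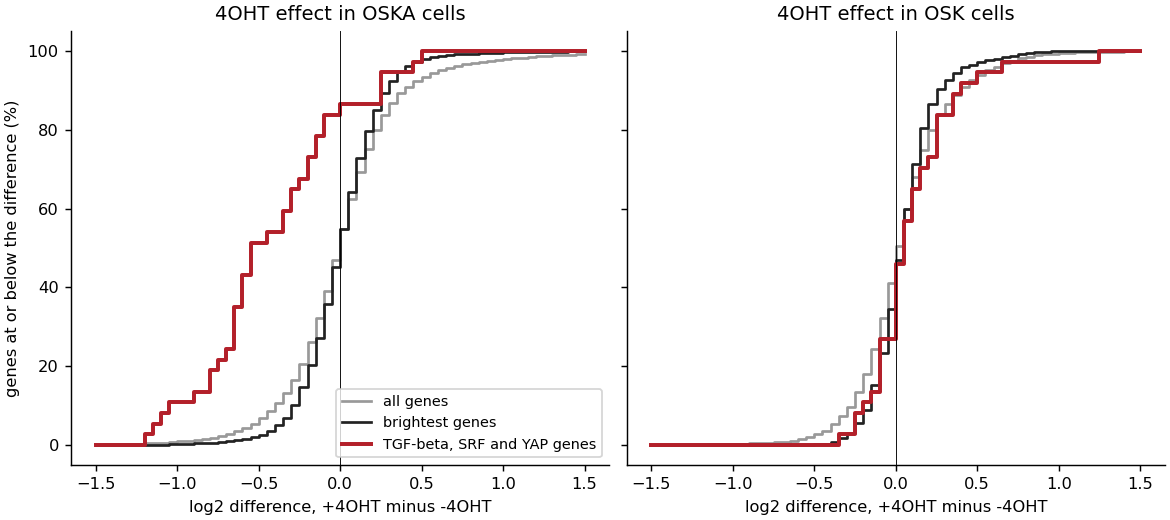
Share of genes (vertical axis, %) whose log2 difference of +4OHT minus -4OHT is at or below the value on the horizontal axis, in OSKA cells (left) and OSK cells (right), for all measured genes, the 6513 brightest and the 37 genes of the list. In OSKA cells the red curve runs far to the left, with its median at -0.58, and in OSK cells it runs along the other curves, with its median at 0.01.

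The OSKA +4OHT array held the lowest of the 4 levels for 25 of the 37 members (67.6%), against 37.5% of the 19540 genes measured on all arrays and 41.7% of the brightest. For 19 members (51.4%) it was lowest by more than the software error, against 14.3% and 14.1%. It was the highest array for 5 members, Tgfb2, Ltbp1, Tgfbi, Postn and Actg2, and for 27.3% of all genes. The median member spanned 0.64 between its lowest and highest array, and the median gene 0.36.

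**Figure D3:**
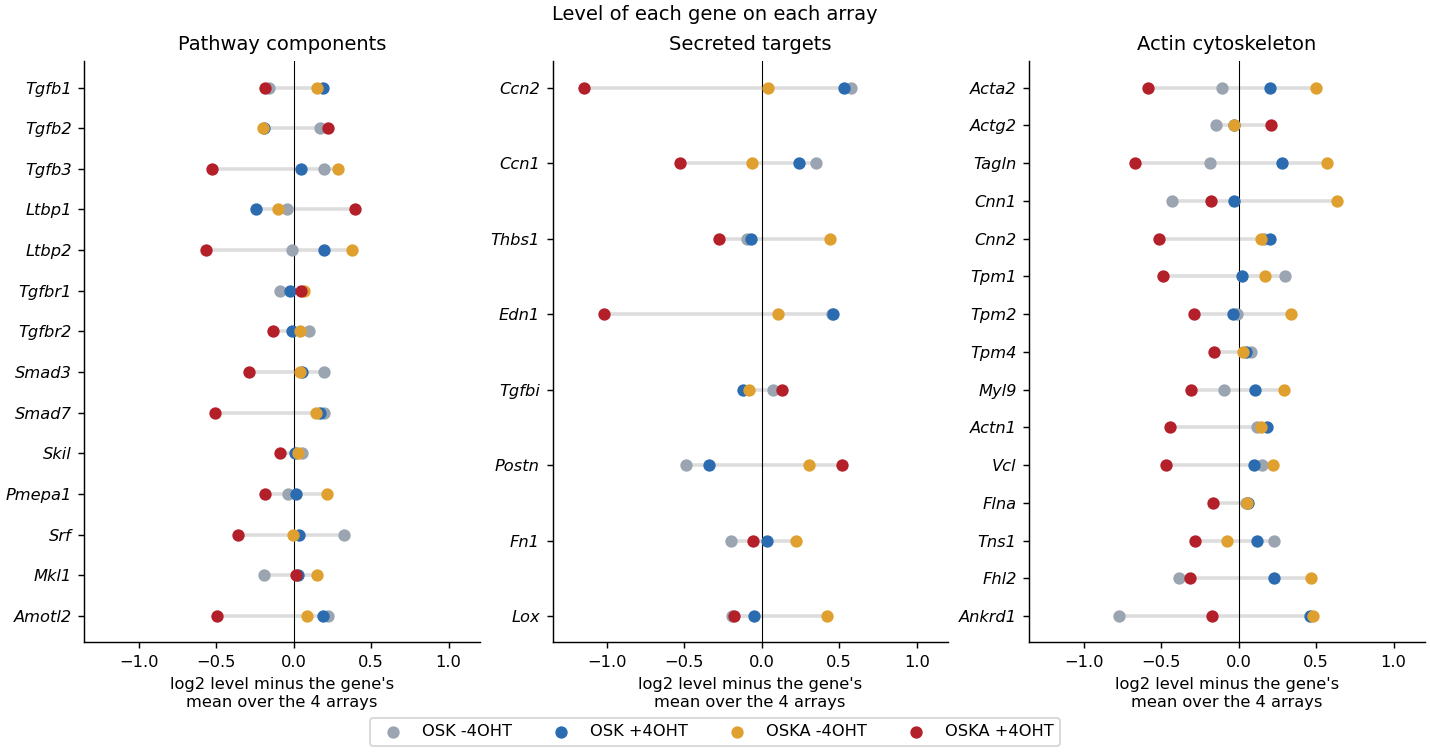
Level of each of the 37 genes on the 4 arrays, as log2 level minus that gene's mean over the arrays (horizontal axis), with 1 point per array and genes grouped by role. Red points (OSKA +4OHT) lie farthest to the left for 25 genes, among them Ccn2, Edn1, Tagln and Acta2.

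Of the ligands, Tgfb3 was lower with 4OHT in OSKA cells and Tgfb2 higher. Tgfb1 had levels of 0.88 on the OSK -4OHT, 1.23 on the OSK +4OHT, 1.19 on the OSKA -4OHT and 0.85 on the OSKA +4OHT array. Its 10 spots on each array differed among themselves by an SD of 0.04 to 0.05, which is the spread within an array and says nothing of that between cultures. The 4OHT difference was -0.34 in OSKA and 0.35 in OSK cells, 0.05 under spike-in scaling. Tgfb2 ran the other way, with levels of 3.20, 2.84, 2.84 and 3.26 in the same order of arrays, and its second probe had the same signs, with 0.58 in OSKA and -0.25 in OSK cells. Tgfb3 stood at 4.78, 4.63, 4.87 and 4.06, with a spot SD of 0.05 to 0.07, and was thus lowest on the OSKA +4OHT array, 1.75-fold below the OSKA -4OHT array.

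The latent TGF-beta binding proteins, which anchor the latent complex in the matrix, differed from each other. Ltbp2, a member of that family found on elastic fibres, had levels of 4.88, 5.09, 5.27 and 4.33, a difference of -0.94 with 4OHT in OSKA cells (1.92-fold lower) and of 0.21 in OSK cells, the latter -0.09 under spike-in scaling. Ltbp1, which binds latent TGF-beta itself, had levels of 2.49, 2.29, 2.43 and 2.93, with the highest on the OSKA +4OHT array and a difference of 0.50 in OSKA cells.

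The receptor genes differed little on their brightest probes. The type I receptor gene Tgfbr1 ranged from 1.17 to 1.33 and the type II receptor gene Tgfbr2 from 4.95 to 5.19 over the arrays. Dimmer probes of both genes gave other values, such as 1.02 for one of Tgfbr1 and 0.71 for the other of Tgfbr2 with 4OHT in OSK cells, so their small differences rest on the probe chosen. Smad3, which carries the TGF-beta signal to the nucleus, had levels of 3.29, 3.15, 3.13 and 2.81, a difference of -0.33 in OSKA cells.

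Among the inhibitors, Smad7 was lower on 1 array. It encodes the SMAD that shuts off the receptors and is itself switched on by the pathway, and its level was 0.76, 0.73, 0.71 and 0.06, so that 3 arrays were nearly level and the OSKA +4OHT array lay 1.57-fold below OSKA -4OHT. Pmepa1, another inhibitor that TGF-beta induces, had levels of 3.80, 3.85, 4.05 and 3.65. Skil, which encodes the SMAD co-repressor SnoN, stayed between 1.51 and 1.66 and its differences in both cell types were within the software error, while its second probe gave -0.25 in OSKA and 0.29 in OSK cells, each past it.

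The transcription factor genes gave values that depended on the probe. Srf had levels of 3.10, 2.82, 2.78 and 2.42, with -0.36 with 4OHT in OSKA and -0.29 in OSK cells, though its second probe gave -0.08 and -0.13. The MRTF gene Mkl1, now named Mrtfa, had levels of 2.83, 3.05, 3.17 and 3.03, with -0.14 in OSKA and 0.22 in OSK cells, while its second probe gave -0.44 and 0.17. Amotl2, a YAP target whose product binds YAP and restrains it, had levels of 3.25, 3.21, 3.11 and 2.53, and only the OSKA +4OHT array stood low, 1.49-fold below OSKA -4OHT.

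Secreted targets held the lowest values between OSKA and OSK cells given 4OHT. Ccn2 (Ctgf in the files; connective tissue growth factor, the reference target of both YAP and TGF-beta) had levels of 6.28 on the OSK -4OHT, 6.23 on the OSK +4OHT, 5.74 on the OSKA -4OHT and 4.56 on the OSKA +4OHT array. It was 2.28-fold lower with 4OHT in OSKA cells and differed by -0.05 in OSK cells. With 4OHT, OSKA cells lay 3.19-fold below OSK cells, and without 4OHT the difference was -0.54. Its probe lies at chr10:24318281-24318340 (mm9, as the file gives it).

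Edn1, the vasoconstrictor endothelin-1 that fibroblasts make in response to TGF-beta, followed the same order. Levels were -0.59, -0.58, -0.93 and -2.06, each over 10 spots with an SD of 0.05 to 0.10, and the probe lies at chr13:42403101-42403160 (mm9). The OSK arrays were level, OSKA -4OHT was a little lower, and OSKA +4OHT was lowest by 2.19-fold against OSKA -4OHT and by 2.79-fold against OSK +4OHT. Edn1 is dim, and with another background correction (normexp with quantile normalization) the difference in OSKA cells was -0.77.

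Ccn1 (Cyr61 in the files), a matricellular YAP target related to Ccn2, had levels of 6.66, 6.54, 6.24 and 5.78, the order of arrays of Ccn2. With 4OHT it differed by -0.46 in OSKA cells, less than Ccn2 (-1.19), and by -0.12 in OSK cells, more than Ccn2 (-0.05). Thbs1, thrombospondin-1, which can release TGF-beta from its latent complex, had levels of 6.13, 6.16, 6.66 and 5.95 and was 1.64-fold lower with 4OHT in OSKA cells. There the OSKA -4OHT array stood high, while the OSKA +4OHT array was close to the OSK arrays.

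The matrix genes among the secreted targets did not share 1 pattern. Fn1, which encodes fibronectin, had levels of 7.92, 8.14, 8.33 and 8.06, with -0.27 in OSKA and 0.23 in OSK cells, the latter -0.07 under spike-in scaling. With normexp and quantile normalization its difference in OSKA cells was -0.09, and between OSKA and OSK cells with 4OHT it turned from -0.09 to 0.22 under quantile normalization. Lox, the lysyl oxidase that cross-links collagen, stood at 2.56, 2.71, 3.18 and 2.57 and was 1.52-fold lower with 4OHT in OSKA cells. Its dimmer probe gave the same signs, with -0.70 in OSKA and 0.92 in OSK cells. Postn, periostin, had levels of 3.34, 3.49, 4.14 and 4.35, so that both OSKA arrays lay above both OSK arrays, by 0.80 without and 0.86 with 4OHT. Tgfbi, a matrix protein named for its induction by TGF-beta, ranged from 5.62 to 5.87 and was 0.21 higher with 4OHT in OSKA cells.

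Among the smooth muscle type genes of the actin cytoskeleton, Acta2, Tagln and Cnn1 were lower with 4OHT in OSKA cells and Actg2 was not. Acta2, smooth muscle alpha-actin and the usual marker of myofibroblasts, had levels of 5.22 on the OSK -4OHT, 5.53 on the OSK +4OHT, 5.82 on the OSKA -4OHT and 4.74 on the OSKA +4OHT array, each over 10 spots with an SD of 0.05 to 0.06. It was 2.12-fold lower with 4OHT in OSKA cells and 1.24-fold higher in OSK cells, the latter a log2 difference of 0.31 that became 0.01 under spike-in scaling. Its probe lies at chr19:34316060-34316119 (mm9).

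Tagln, transgelin (SM22-alpha), an actin-binding protein and a classic SRF target, had the largest difference of the list in OSKA cells. Its levels were 5.22, 5.68, 5.97 and 4.73 (probe at chr9:45738097-45738156, mm9), which is 2.36-fold lower with 4OHT in OSKA and 1.38-fold higher in OSK cells. Only 74 of the 20299 genes measured were as low or lower in that comparison. The order of the arrays was that of Acta2, with OSKA -4OHT at the top, OSKA +4OHT at the bottom and the OSK arrays between them.

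Of the calponins and the LIM protein gene Fhl2, Cnn1 and Fhl2 were highest on the OSKA -4OHT array. Cnn1, calponin of smooth muscle, had levels of 0.24, 0.64, 1.31 and 0.49, and was 1.76-fold lower with 4OHT in OSKA cells, yet its OSKA +4OHT array was not the lowest of the 4. Cnn2, the calponin found in most cells, had levels of 4.24, 4.28, 4.23 and 3.57, with 3 arrays level and OSKA +4OHT lower, as for Smad7. Fhl2, a target and cofactor of SRF, had levels of 3.90, 4.51, 4.75 and 3.97, that is -0.78 with 4OHT in OSKA and 0.62 in OSK cells.

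Ankrd1, a nuclear protein of stretched muscle and a standard YAP target, gave a signal near the lower end of the array's range and was the member with the largest difference in OSK cells. Its levels were -4.10, -2.88, -2.85 and -3.50 (probe at chr19:36186809-36186868, mm9), 2.34-fold higher with 4OHT in OSK and 1.57-fold lower in OSKA cells. With normexp and quantile normalization these became 0.45 and -0.25 on the log2 scale, a setting that changes background, offset and normalization together.

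The 5 macrophage markers, all well above background on all arrays, had summed intensities, in units of each array's 75th percentile, of 131 on the OSK -4OHT, 179 on the OSK +4OHT, 177 on the OSKA -4OHT and 156 on the OSKA +4OHT array. The sum was thus lowest on the array where Cnn1, Fhl2 and Ankrd1 were lowest, although of the 5 markers Itgam ran otherwise, at 4.59, 4.30, 4.41 and 3.91 on the log2 scale. Their part in these values was not tested.

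The genes of stress fibres Myl9, Tpm1, Tpm2 and Tpm4 were each lowest on the OSKA +4OHT array, by differing amounts. Myl9, the regulatory myosin light chain, had levels of 5.47, 5.67, 5.86 and 5.26. The tropomyosin genes Tpm1 and Tpm2, whose products coat actin filaments, differed by -0.66 and -0.62 with 4OHT in OSKA cells, although the other probes of Tpm1 ranged from -0.49 to -0.08. Tpm4 differed by -0.19, within the software error.

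Of the genes of actin cross-linking and adhesion, Actn1 and Vcl had 1 low array. Actn1, alpha-actinin, had levels of 1.46, 1.52, 1.49 and 0.90, and Vcl, vinculin, of 2.89, 2.84, 2.96 and 2.27. In each the OSK arrays and OSKA -4OHT lay close together and OSKA +4OHT lay 1.51-fold and 1.62-fold below OSKA -4OHT. A dimmer probe of Vcl gave -0.87 in OSKA but 0.97 in OSK cells, where its brightest probe gave -0.05. Filamin A (Flna) differed by -0.22 and tensin (Tns1) by -0.21 in OSKA cells, and the other probes of Tns1 by -0.64 and -0.11. Tns1 had levels of 4.91, 4.80, 4.61 and 4.40. Actg2, smooth muscle gamma-actin, was the exception, with levels of 2.74, 2.86, 2.86 and 3.10 and a difference of 0.24.

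**Figure D4:**
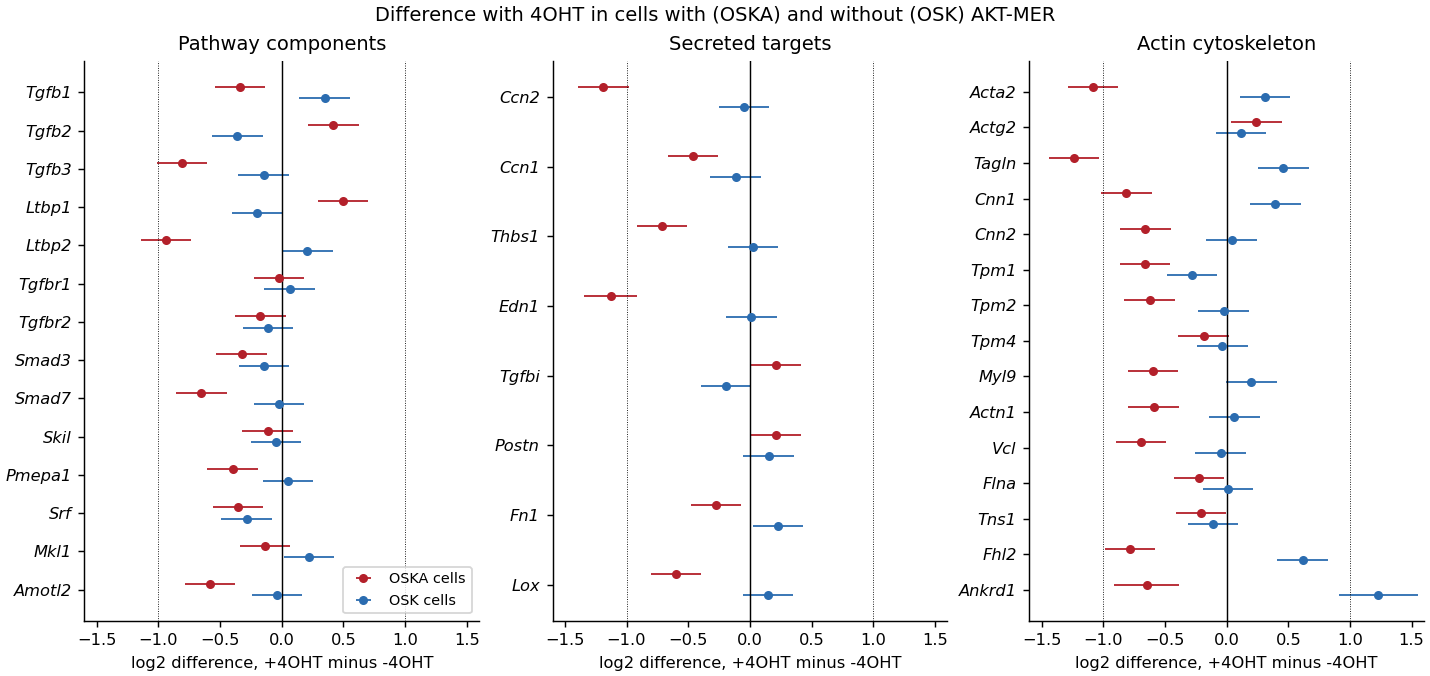
Log2 difference of +4OHT minus -4OHT for each of the 37 genes in OSKA cells (red) and OSK cells (blue), grouped by role. Bars are the software error of the difference, not a spread over replicates, and dotted lines mark 2-fold, which in OSKA cells Tagln, Ccn2, Edn1 and Acta2 pass on the lower side.

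The difference between the 4OHT differences of OSKA and OSK cells had a median of -0.54 over the list and -0.04 over all genes. Under spike-in scaling the median over the list was -0.17. That scaling moves the gap of every gene alike, so the distance between the list and all genes is by construction the same. Before it, the gap was at least 2-fold on the lower side for 8 members, Ankrd1, Tagln, Fhl2, Acta2, Cnn1, Ltbp2, Ccn2 and Edn1, against 2.67% of all genes. Spike-in scaling left 4 of them, Ankrd1, Tagln, Fhl2 and Acta2, against 0.870% of all genes. It put 2 members at least 2-fold on the higher side, a count that cannot be read alone. All gaps moved upward together, and the share of all genes on that side was not counted. With normexp and quantile normalization 6 were left, without Ankrd1 and Edn1, against 0.696%. No array was repeated, so this gap has no test either. Of all genes 54.3% had a gap on the lower side. Among the marker lists the median gap was -0.59 for macrophage (5 of 5 lower) and -0.47 for measured pluripotent markers (3 of 4 lower). For the measured skeletal and cardiac muscle markers it was -1.02 (2 of 2 lower). It was 0.01 for fibroblast and for endothelial markers, 0.38 for smooth muscle markers (2 of 2 higher) and 0.45 for epithelial markers (3 of 5 higher). The part of these cell types in the gap of the list was not tested.

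OSKA cells were also set against OSK cells under the same treatment. Without 4OHT the list had a median difference of 0.07, with 2 members, Cnn1 and Ankrd1, at least 2-fold higher against 1.09% of all genes, and 7 at least 1.5-fold higher against 5.66%. Fhl2 was higher by 0.85, Postn by 0.80, Tagln by 0.75, Lox by 0.62 and Acta2 by 0.61, while Ccn2 differed by -0.54. Spike-in scaling decreased every value of this comparison by 0.46, which gave the list a median of -0.39. With 4OHT the list had a median difference of -0.37, with 31 of 37 lower, where the median of all genes was -0.05 and 57.1% of them were lower. There 2 members, Ccn2 and Edn1, were at least 2-fold lower against 1.12% of all genes, and 0 were as much higher, against 1.92%. At 1.5-fold 11 were lower, against 5.10%, and 2, Postn and Ltbp1, were higher, against 5.46%. These comparisons and those of 4OHT share arrays and are not independent of each other.

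**Figure D5:**
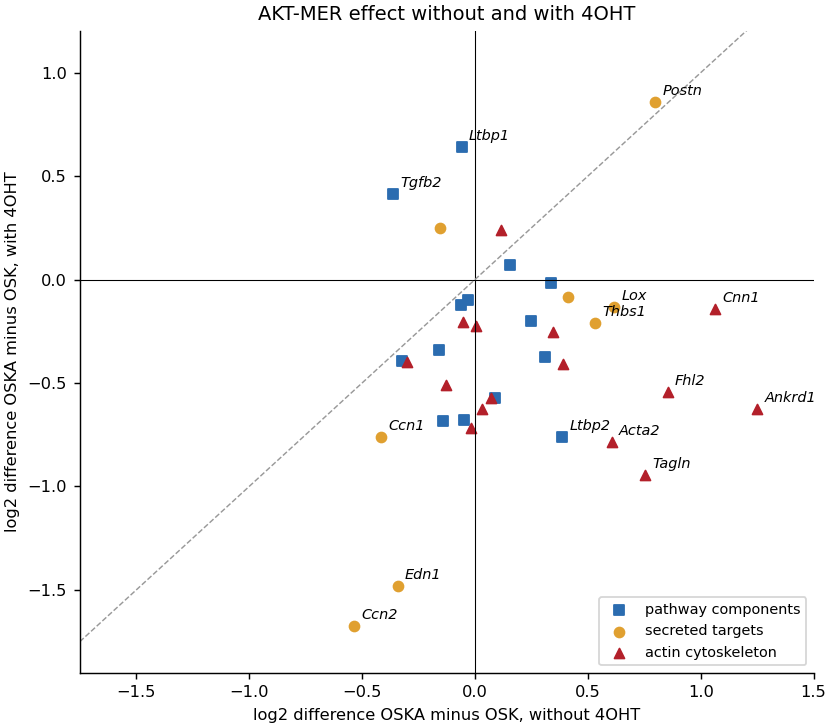
Log2 difference of OSKA minus OSK cells without 4OHT (horizontal axis) and with 4OHT (vertical axis), 1 point per gene, with shape and colour by role and the dashed line where both are equal. Tagln, Acta2, Fhl2 and Ankrd1 lie to the right of 0 and below 0, Ccn2 and Edn1 lie below 0 on both axes, and Postn lies above 0 on both.

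Other genes of the same routes were read from longer lists for the 4OHT difference of OSKA cells, in which 54.8% of all genes were lower. Of 20 further TGF-beta pathway genes 19 were measured, with a median of -0.40 (that of the list's own pathway components was -0.33), 16 lower, 0 at least 2-fold lower against 0.902% of all genes, and 5 at least 1.5-fold lower against 4.63%. Among them, and named after their values were seen, Ltbp4 differed by -0.79, Smad6 by -0.70 and Inhba by -0.63. Ltbp4 was at least 2-fold lower in OSKA than in OSK cells with 4OHT, with a log2 difference of -1.06.

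The 20 further Hippo and YAP genes had a median of -0.22, with 12 lower. The gene for YAP itself, Yap1, differed by 0.00 with 4OHT in OSKA and by -0.05 in OSK cells, and its partner Wwtr1 (TAZ) by 0.29 and -0.25. Of 30 further SRF and actin genes 29 were measured, with a median of -0.19, 25 lower and 0 at least 1.5-fold lower, against 4.63% of all genes. Cytoplasmic Actb and Actg1 differed by -0.06 and 0.03.

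By motif, the members with a CArG box differed by -0.78 to -0.36 with 4OHT in OSKA cells (n = 5, median -0.66). The 22 members whose windows held no exact match spanned -1.13 to 0.50, with a median of -0.33. The 10 members with no window, among them Tagln (-1.24), Ccn2 (-1.19) and Actg2 (0.24), are in neither group for any motif. For the TEAD motif the medians were -0.66 (n = 8) and -0.33 (n = 19), and for CAGACA -0.08 (n = 6) and -0.58 (n = 21). The ranges overlapped in each case, and no test was made.

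Markers of cell types were read beside these values. All 9 fibroblast markers were well above background on all arrays, and their summed intensity, in units of the array's 75th percentile, was 1568 to 1721. Their log2 differences with 4OHT in OSKA cells went both ways, from -0.67 for Pdgfrb to 0.49 for Col3a1. Of the 6 smooth muscle markers, Myh11, Myocd and Lmod1 were well above background on 0 arrays, Des on 1 and Smtn and Synm on all 4, while Acta2, Tagln and Cnn1, members of the list, were so on all 4. Of the skeletal and cardiac muscle markers, Acta1, skeletal muscle actin, had a log2 difference of -1.17 with 4OHT in OSKA cells, and Tnnt2, a cardiac troponin, one of -1.52 between OSKA and OSK cells with 4OHT. Myh6, a cardiac myosin, was not well above background on the OSK -4OHT array and was at least 2.72-fold higher with 4OHT in OSK cells and at least 3.68-fold so with AKT-MER when no 4OHT was given. The muscle regulators Myod1 and Myog were not well above background on any array.

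The summed epithelial markers were 14.5 on the OSK -4OHT, 11.9 on the OSK +4OHT, 9.25 on the OSKA -4OHT and 6.64 on the OSKA +4OHT array, although with 4OHT in OSKA cells 3 of the 6 were higher and 3 lower. There Krt19 differed by -0.96, Krt18 by 0.86 and Krt8 by 0.56. Without 4OHT the log2 difference of OSKA minus OSK was -1.05 for Cdh1, -1.23 for Krt8, -0.10 for Epcam and 0.27 for Krt18, and with 4OHT it was -1.29 for Krt19 and 1.06 for Krt18. Their part in the values above was not tested.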

How the data were processed

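Total RNA of 4 cultures (100 ng each) was labelled with Cy3 and hybridised to single-channel Agilent arrays on 1 slide. The authors scanned them and deposited, per the file headers, Agilent Feature Extraction 10.7.3.1 output, from which the background-corrected intensity of each spot was used. Spots flagged as outliers (104 to 155 per array) and control spots were left out, and spots of 1 probe were averaged. Levels are log2 intensity minus the array's 75th percentile. A probe counted as measured in a comparison if it was well above background on both arrays, and a gene was read from its brightest probe. On each single array 52.4% to 55.4% of spots were well above background. Names were updated through RefSeq accessions for 27509 of 55681 probes (49.4%). The array number, 1 per group, limits the precision, and repeat spots differed by a median SD of 0.06 to 0.07.

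Differences were taken between arrays with no test and counted at 2-fold. Members described most fully were at least 2-fold different in any comparison or had opposite 4OHT differences in OSKA and OSK cells, each past the software error, and genes of other lists were named at 2-fold in any comparison, with a few others (Smad6, Inhba, Yap1, Wwtr1, Actb, Actg1, Pdgfrb, Col3a1, Itgam and undetected or defining markers) named after their values were seen. Members and lists were chosen with earlier results of these data known. Alternatives were quantile normalization, spike-in and median scaling, normexp (offset 50) in limma 3.58.1, the filter on dim probes, the mean over probes, the deposited value table and a 1.5-fold threshold. Motifs were searched in RefSeq promoter windows. Python 3.11.15, numpy 2.4.6, pandas 2.3.3 and R 4.3.3 were used, and the differences were checked on simulated data.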

Additional observations from a re-analysis of the deposited data

Results flagged for a closer look

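In all, 9 of the 37 members (24.3%), against 9.36% of all 19540 genes and 4.71% of the 6513 brightest, had 4OHT differences of opposite sign in OSKA and OSK cells, each past the software error, with 1 array in each group. The gap, as the log2 difference in OSKA cells minus that in OSK cells, was -1.88 for Ankrd1, -1.70 for Tagln, -1.40 for Fhl2, -1.39 for Acta2, -1.21 for Cnn1, -1.15 for Ltbp2, -0.68 for Tgfb1 and -0.50 for Fn1. Tgfb2 was the 1 gene with a gap in the other direction, at 0.78. The differences between the cell types were not tested. Spike-in scaling moves the differences of all genes in OSK cells alike, by -0.30, which put those of Ltbp2 and Fn1 at -0.09 and -0.07 and those of Tgfb1, Acta2, Cnn1 and Tagln at 0.05, 0.01, 0.09 and 0.16, within the software error.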

How the results depend on the processing

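No paired analysis was possible because each group had 1 array, and for the same reason no replicate could be left out. Among the members described most fully, no difference of at least 2-fold changed sign under an alternative, and genes outside the list were not rerun. In OSKA cells the medians of the list and of its groups moved by less than the software error under each of the alternatives tried. Spike-in scaling gave medians in OSK cells of -0.29 (list), -0.34 (pathway components), -0.28 (secreted targets) and -0.24 (actin cytoskeleton), and for OSKA against OSK without 4OHT of -0.39, -0.51, -0.33 and -0.35. It left 0 members at least 2-fold higher in those comparisons and 1 lower in the second. The median gap between the 4OHT differences became -0.17 over the list, with the gap of every gene moved alike. Normexp with quantile normalization also left 0 members 2-fold higher in both. At a 1.5-fold threshold the counts were 18 lower with 4OHT in OSKA cells, 2 higher in OSK cells, 7 higher in OSKA without 4OHT, and 11 lower and 2 higher in OSKA with 4OHT. For single members 322 values moved by less than the error and 30 by more.

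Counts over all genes also depended on the setting. At least 2-fold lower and higher genes numbered 183 and 408 for the 4OHT difference of OSKA cells, 55 and 121 for that of OSK cells, 188 and 219 for OSKA against OSK without 4OHT and 222 and 381 with it. With normexp and quantile normalization, which differ from the main setting in background, offset and scaling together, they numbered 34 and 170, 8 and 22, 41 and 32, and 64 and 179 in that order. Without the filter on dim probes they numbered 1455 and 1881, 1207 and 1270, 1523 and 1469, and 1441 and 1705. Spike-in scaling gave 175 and 34 in OSK cells and 995 and 38 for OSKA against OSK without 4OHT, and 301 and 314 with it. Signal over background limits Ankrd1 and Edn1 most.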
